A study of Mus musculus with 9 samples.

Results

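Intronic circular RNAs were the back-spliced RNAs that the authors' circRNA table placed in introns, leaving out those of the titin gene Ttn. They numbered 370 of the 4610 circRNAs in the table and held 1712 of its 32813 back-splice junction reads, or 5.22%. The others were 3549 exonic, 620 sense overlapping, 33 intergenic and 16 antisense circRNAs, with 22 intronic circRNAs of Ttn. The 370 were taken by the table's own class, and their junction reads were pooled per host gene, the gene the table names for each circRNA, and per stage. The study sequenced total RNA of wild type mouse hearts with 3 libraries at each of 3 ages: E18, or embryonic day 18, 3d, the neonate of 3 days, and 8w, the adult of 8 weeks. The labels call the material heart tissue and also embryonic, neonatal and adult cardiocytes, and name no sex or strain. RNA was extracted with a Qiagen RNeasy kit and made into libraries with a SMARTER kit. The labels number the libraries as biological replicates without saying that they came from separate animals, so p-values measure the spread between these libraries. In bulk hearts, fewer cells of a type and less RNA per cell cannot be told apart.

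A circular RNA forms when a downstream splice donor is joined to an upstream acceptor, and reads across that joint count it. Intronic circles are best known from introns cut out as lariats: the debranching enzyme normally opens the lariat for decay, and one that escapes is trimmed to a circle that begins at the first base of the intron, a GT, and ends at the branch point. Others arise by back-splicing at acceptor and donor sites hidden inside an intron, and are then flanked by AG before and GT after, as exon circles are. Circular RNA has no free end, resists exonucleases and is abundant in the heart.

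Sequence is shown for 8 intronic circles, to give the joints and flanks of circles from different places. The first 3 are the joints of the most abundant Tulp4 circle (chr17:6137211-6139156, plus strand) and of both Lrrfip2 circles (chr9:111175777-111180272 and chr9:111170256-111180272, plus strand), as the last 15 bases of the circle in lower case and its first 15 in capitals. The Ahnak circle (chr19:9006380-9006580, plus strand) and the Xirp2 circle (chr2:67511861-67512079, plus strand) are whole, with the AG before and the GT after the circle in capitals. For Zfp955a (chr17:33241825-33242076, minus strand) the capitals are the copy, at the 5′ end of the circle, of a 53-base run that occurs at both ends. For Slc25a36 (chr9:97087064-97087258, minus strand) the capitals are both copies of a 14-base run at the ends. For Zfp68 (chr5:138616566-138617054, minus strand) the lower case opening is the end of an exon, the GT in capitals begins the intron and the circle, and further intron follows. All are written 5′ to 3′ on the listed strand, from GENCODE vM21 transcripts of build GRCm38. Tulp4, Lrrfip2 and Ahnak are among the 12 intronic circles with most reads, and the other 4 genes were chosen after their values were seen.
Tulp4 joint: ggccacaacagtgagAGTTGTAAGAGTCCA
Lrrfip2 joint of the shorter circle: agaagcagtcctgtgAATCATTCTTACAGT
Lrrfip2 joint of the longer circle: agaagcagtcctgtgAGTTCATCGAAGGAT
Ahnak circle and flanks: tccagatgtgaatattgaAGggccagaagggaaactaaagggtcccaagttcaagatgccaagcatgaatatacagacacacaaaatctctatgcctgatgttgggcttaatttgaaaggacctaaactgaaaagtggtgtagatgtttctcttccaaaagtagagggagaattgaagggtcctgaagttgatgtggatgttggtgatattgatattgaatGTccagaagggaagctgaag
Xirp2 circle and flanks: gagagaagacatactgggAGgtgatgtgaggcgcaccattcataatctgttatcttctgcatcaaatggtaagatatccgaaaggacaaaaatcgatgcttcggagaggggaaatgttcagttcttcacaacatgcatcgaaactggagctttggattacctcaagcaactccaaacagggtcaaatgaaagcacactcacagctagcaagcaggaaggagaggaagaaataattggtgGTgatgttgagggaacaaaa
Zfp955a end repeat: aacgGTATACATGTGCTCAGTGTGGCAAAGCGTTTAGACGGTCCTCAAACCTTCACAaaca
Slc25a36 circle and flanks: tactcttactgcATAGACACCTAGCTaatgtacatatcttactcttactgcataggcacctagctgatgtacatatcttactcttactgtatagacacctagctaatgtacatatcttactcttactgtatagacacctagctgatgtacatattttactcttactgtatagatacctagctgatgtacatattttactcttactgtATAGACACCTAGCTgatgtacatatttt
Zfp68 exon end and circle start: ctcttcaaccatcagGTaagtgcacatacc

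Each library held between 2676 and 4494 junction reads and between 12196900 and 15613500 fragments, so counts of single circles were small. No molecular identifiers are named, and the intervals below cover counting error only. The summed FPKM of 10 cardiomyocyte markers lay between 14787 and 15296 at E18, between 16268 and 17414 at 3d and between 28757 and 30519 at 8w, with Ttn listed at 0. The 8w replicate 2 library stood apart among the intronic circles. It held 84 of the 370, and 64 were seen nowhere else, against 12 to 37 in each other library. The 4 lung epithelium markers summed to 103 FPKM in that library, to 56.8 and 32.2 in 3d replicates 2 and 3, and to at most 0.46 in the other 6. Their part in the result was not tested, and the counts of circles by stage and by library and the share of junction reads are also given without it. Strand counting is not stated in the sources used here, so reads of a gene and of its antisense partner cannot be told apart.

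Most intronic circles were rare and were seen in 1 library. The median circle had 2 junction reads over all libraries, 216 of 370 (58.4%) had exactly 2, and 13 reached 10. A total of 273 (73.8%) were found in 1 library, against 40.6% of exonic and 61.9% of sense overlapping circles. Every circle of any class had at least 2 reads in some library. A circle with 2 reads in all could therefore only be in 1 library. That was so for 216 of the 273 intronic, 1106 of the 1441 exonic and 284 of the 384 sense overlapping ones. Their number of libraries was thus set in advance. Only 2 intronic circles, those of Tulp4 and Ahnak, were found in all 9 libraries. Among circles with exactly 4 reads, 11 of 36 intronic ones (30.6%) were in 1 library, against 16.8% of exonic and 29.0% of sense overlapping ones, and 7 of the 11 were in 8w replicate 2. Over 4 to 9 reads, where the counts are not matched, 16 of 59 intronic circles (27.1%) were in 1 library, 11 of them in 8w replicate 2. Of exonic circles it was 8.29%, and of sense overlapping ones 15.9%. With that library left out, a choice made after seeing the data, 306 intronic circles remained and 215 (70.3%) were in 1 library. Of exonic circles it was then 40.3%, and of sense overlapping ones 60.5%. Among those then at exactly 4 reads it was 4 of 27 intronic circles (14.8%), 11.5% of exonic and 16.7% of sense overlapping ones. Over 4 to 9 reads it was 5 of 45 intronic circles (11.1%), 5.44% of exonic and 8.77% of sense overlapping ones. E18 held 148 of the 370, 3d held 130 and 8w held 162, and 17 were seen at all 3 stages. Another 108 were seen at E18 alone, 88 at 3d alone and 121 at 8w alone. By the same floor, a circle with 2 reads in all could be seen at 1 stage only. Without 8w replicate 2 the 8w libraries held 91 circles, 57 of them at 8w alone, so the stage with most circles was then E18, with 148. With a median of 2 reads, absence from a stage was not detectable as a difference for most of them.

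The reads were concentrated in a few host genes. The 370 circles came from 305 hosts, 263 of which had 1 circle. The Tulp4 circle alone held 29.3% of the reads, and Tulp4, Ahnak, Ptprm and Lrrfip2 together held 701 reads (40.9%). At the other end, 252 hosts had fewer than 5 reads. Ahnak had most circles, with 11, and Cacna1c, Samd4, Zfp644 and Ctnna3 had 4 each.

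Intronic circles were far shorter than exonic ones, measured as the genomic distance between the ends. Their median was 491 bases (quartiles 216 and 2676), and that of exonic circles was 11293. Under 300 bases lay 36.5% of the intronic and 1.30% of the exonic circles. Sense overlapping circles lay between, with a median of 8515 bases and 12.6% under 300 bases. The table traced 31 intronic circles (8.38%) to earlier collections, against 70.9% of the exonic and 23.4% of the sense overlapping ones. These are descriptions without a test, since circles are not replicates.

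**Figure D1:**
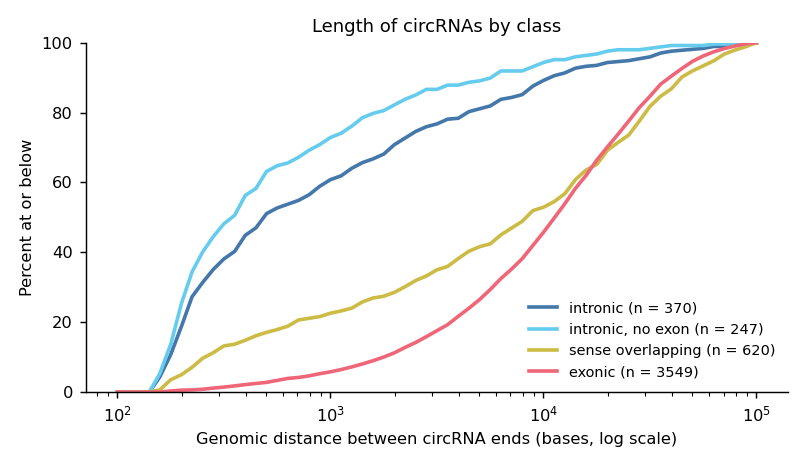
Cumulative percent of circRNAs (vertical axis) at or below a genomic distance between their ends in bases (horizontal axis, log scale), for intronic, intronic without exon overlap, sense overlapping and exonic circRNAs. The intronic line reaches 50 percent near its median of 491 bases, and the exonic line near 11293.

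The class name covered several kinds of place. How the authors set the table's class is not stated in the sources used here. Each circle was therefore also placed against all GENCODE vM21 exons on its strand. No exon was touched by 247 circles (66.8%), which held 720 reads (42.1%). Both ends lay exactly at exon edges in 13 circles, 3.51% of the circles and 35.0% of the reads, most of them Tulp4. For comparison, 99.6% of exonic circles had both ends at exon edges. A further 46 circles with 157 reads had 1 end at an exon edge, 36 circles with 165 reads lay inside 1 exon, and 28 with 70 reads overlapped exons in another way. Of 109 named circles that overlapped exons, 22 (82 reads) touched no exon of their listed host. The Fgfr2 circle shared an exon edge with Eef1akmt2, and both Pfkfb2 circles with the pseudogene C4bp-ps1.

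**Figure D2:**
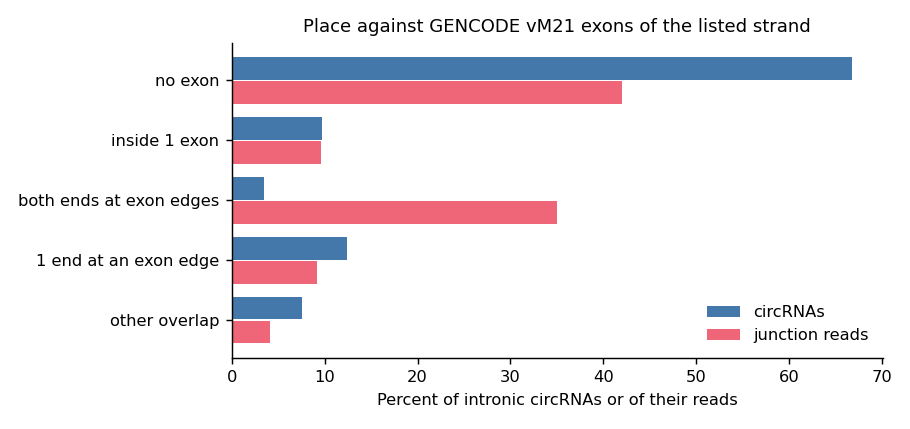
Percent of the 370 intronic circRNAs and of their 1712 junction reads (horizontal axis) by place against annotated exons on the listed strand (vertical axis). Circles with no exon overlap were 66.8% of the circles, and circles with both ends at exon edges were 3.51% of the circles but 35.0% of the reads.

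Circles within introns mostly lay far from the splice sites of long introns. Of the 247 that touched no exon, 241 lay in an annotated intron, taken as the shortest one on the strand that held the circle. For 116 of these (48.1%) that intron was intron 1 of at least 1 annotated transcript, not always of the listed one. Where transcripts shared an intron the lowest number was taken, which raises this share, and no share for introns in general was computed. The median intron was 35341 bases long, and the median circle covered 1.99% of it. Median distances were 7951 bases from the upstream and 12650 bases from the downstream end of the intron. Lariat-like starts were few among the listed circles: 8 circles with 22 reads began at the first base of an intron. They were those of Wapal, Nbn, Zfp68, Senp6, Speg, Lphn2, Ybx1 and Cd36, and 7 of the 8 were seen in 1 library. The caller is not stated, and a rule asking for GT after the circle could leave out circles that end at a branch point. The count therefore cannot show how many lariat circles were present. The Nbn circle, in a gene of the DNA break repair complex, spanned all 2066 bases of intron 14. The Zfp68 circle spanned all 489 bases of an annotated intron and also lay inside 1 annotated exon. The printed exon end and GT show its start only. The Wapal circle covered 847 of 848 bases and that of Cd36, a fatty acid transporter gene, 470 of 471. By contrast, the Senp6 circle covered 205 of 7546 bases and the Speg circle 209 of 8822.

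Reference sequence for both flanks was found for 47 circles, mostly those whose ends lie in exons, so they do not stand for all 370. AG before and GT after the circle were read in 35 of them (170 reads), among them Ahnak and Xirp2 as printed. The Nbn and Zfp68 circles, which begin at the first base of an intron, were also among the 35, so these flanks do not separate the kinds. AC before and CT after, which is the same pair of sites on the opposite strand, was read in the other 12 (29 reads). Among those 12, 4 lay over an exon of the other strand, against 1 of the 35. Of these 4, 3 were the Slc25a36 circles of 1 tandem repeat, so they were not separate cases. Every one of 100 exonic circles read in the same way had AG and GT. No circle read, intronic or exonic, had any other pair. Whether the caller required such bases is not stated, so these counts cannot be read as a trait of the circles. A run of at least 5 identical bases at both ends was found in 22 of 46 intronic circles (47.8%) and in 7 of 96 exonic ones (7.29%). Of the 46, 35 lay inside 1 exon, and the 96 were read out of 3549 exonic circles. The 22 included several circles each of Ahnak, Slc25a36 and Gm20388, so they were not all separate places.

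The longest such run was the 53 bases printed for Zfp955a, a gene of many zinc fingers, whose 252-base circle had 2 reads, both in 8w replicate 2. In Slc25a36, a mitochondrial carrier gene, 3 circles lay in intron 1 within a tandem repeat of 39 bases. The 195-base circle printed is 5 units long and 94.9% of its bases equal the base 1 unit further on, and the 312-base circle is 8 units long at 93.4%. All 3 Slc25a36 circles had AC and CT flanks, the same 14-base run at their ends, and an exon of the antisense gene Gm16185 opposite. They had 9 reads in all, 1 in E18 replicate 2, 2 and 4 in 3d replicates 2 and 3, and 2 in 8w replicate 3. In such repeats the joint can be placed at more than 1 position, and the counts of these circles are uncertain.

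The share of junction reads on intronic circles overlapped between the 3 stages, and no difference passed the test. At E18 the share was 5.23%, 4.69% and 5.82% in replicates 1 to 3. At 3d it was 5.04%, 4.59% and 4.61%. At 8w it was 4.21%, 6.68% and 5.67%, so the adult libraries spanned the range of all others. Exact Clopper-Pearson 95% intervals were 3.62% to 4.87% for 8w replicate 1 and 5.96% to 7.45% for 8w replicate 2 and did not meet. These intervals take reads as independent draws, and reads that come in clumps would widen them. In 8w replicate 2, 169 reads were on 64 circles seen in that library alone. Stage means were 5.25% ± 0.56, 4.75% ± 0.26 and 5.52% ± 1.24 (SD, n = 3). The differences were -0.50 points for 3d against E18 (two-sided exact permutation p = 0.2), 0.77 points from 3d to 8w (exact p = 0.4) and 0.27 points from E18 to 8w (exact p = 0.9). Adjusted by Benjamini-Hochberg over 9 such tests, the exact p-values were 0.643, 0.643 and 0.9, where 3 against 3 cannot give a raw p below 0.1. Without 8w replicate 2 the last difference was -0.30 points and the second 0.20.

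Part of the adult share was Tulp4, and part was circles of 1 library. Without Tulp4 the shares were 3.76% ± 0.54, 3.61% ± 0.31 and 3.64% ± 1.34 (SD, n = 3), and for circles with no exon 2.15% ± 0.36, 2.20% ± 0.13 and 2.19% ± 0.98. Circles inside 1 exon took 0.29% ± 0.07, 0.59% ± 0.21 and 0.62% ± 0.11, and those at exon edges on both sides 1.95% ± 0.14, 1.44% ± 0.12 and 2.04% ± 0.24. These splits were made with the values known and carry no test. Of 5 circles with at least 5 reads all in 1 library, 4 were in 8w replicate 2: those of Timp3, a metalloproteinase inhibitor, Crim1, Ccbe1, a lymphatic growth regulator, and Edc3, a decapping factor.

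**Figure D3:**
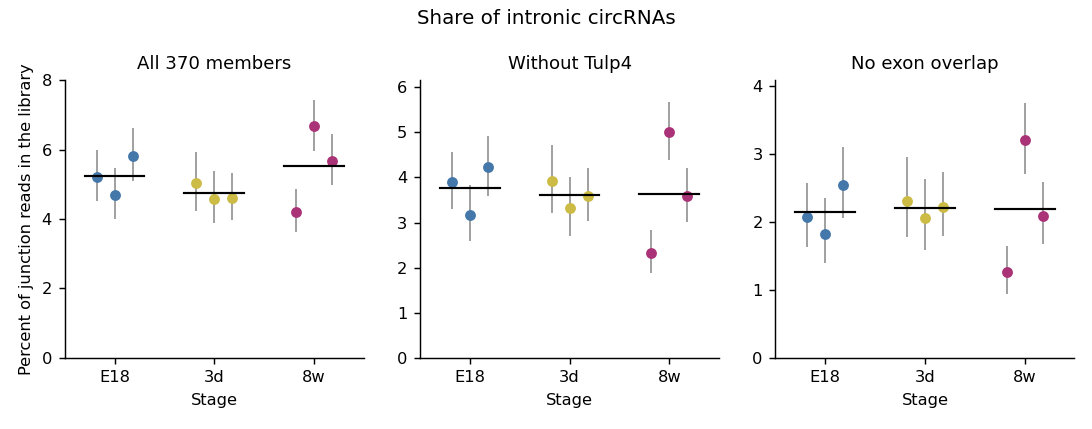
Percent of a library's junction reads on intronic circRNAs (vertical axis) by stage (horizontal axis), for all 370 circles, without Tulp4 and for circles with no exon overlap. Points are libraries with 95% exact intervals, bars are stage means, and the 8w libraries span 4.21% to 6.68% in the first panel.

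Of the 370 circles, 13 had the 10 reads needed for a test, and of the 305 hosts 14 had them after pooling. Changes were tested with edgeR's quasi-likelihood test over all 626 circles and all 672 host sums with 10 reads. Among the 13 circles, edgeR's quasi-likelihood test called 0 for 3d against E18 (0.319% of all tested circles were called), 1 from 3d to 8w (2.88%, and 1.28% were called higher) and 0 from E18 to 8w (4.95%). An unadjusted p under 0.05 was reached by 1, 4 and 5 of the 13, and DESeq2 called 0 in each comparison. Among the 14 hosts the calls were 0 (0.149% of all host sums), 2 (2.53%) and 0 (3.87%), both higher at 8w than at 3d, where 1.04% of host sums were called higher. Unadjusted, 1, 4 and 4 of the 14 hosts were under 0.05, and DESeq2 called 0, 1 and 0. The 2 called hosts were Tulp4 and Pfkfb2.

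Tulp4, a gene of the Tubby-like protein family, gave the most abundant circle of the class. The 1946-base circle lies in intron 1 of the listed transcript, starts at the first base of one annotated Tulp4 exon and ends at the last base of another. Its junction reads were 49, 50 and 59 at E18, 30, 39 and 40 at 3d, and 78, 75 and 82 at 8w. All 3 adult libraries were above all others and all 3d libraries below all E18 ones. Per 1000 junction reads the means were 14.8 ± 1.36, 11.4 ± 1.29 and 18.8 ± 2.14 (SD, n = 3). From 3d to 8w the share of junction reads rose 1.66-fold (95% counting interval 1.31 to 2.10). In edgeR's quasi-likelihood test the circle's log2 change was 0.89 (SE 0.28, adjusted p = 0.0487), and as a host sum it was 0.89 (SE 0.27, adjusted p = 0.0389). From E18 to 3d the ratio was 0.763 (0.592 to 0.980), with edgeR adjusted p = 0.625 for the host. The 8w call was lost for the circle in edgeR's test when 3d replicate 1 (adjusted p = 0.0776), 3d replicate 3 (0.167), 8w replicate 1 (0.0736) or 8w replicate 3 (0.186) was left out, with log2 changes between 0.80 and 1.03 over all 6 omissions. The host call was lost without the same 4 libraries (edgeR adjusted p from 0.0879 to 0.278). Without TMM factors both calls were lost (edgeR adjusted p = 0.0957 and 0.0949), and DESeq2 gave adjusted p = 0.0667 for the circle.

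Pfkfb2 encodes the cardiac form of the enzyme that makes and removes the main activator of phosphofructokinase. Of its 21 circle reads 20 were in adult libraries. There were 6, 7 and 7 reads at 8w, 1, 0 and 0 at E18 and none in the 3d libraries. These came from 2 circles of 1922 and 1925 bases that share 1 end (chr1:130682149) and differ by 3 bases at the other. With 3 reads put in place of 0 for the 3d group, the host's share was 5.12-fold higher at 8w. On the reads as counted, the lower 95% counting limit of the ratio of 8w to 3d was 3.79. In edgeR's quasi-likelihood test the adjusted p was 0.0300. Against E18 the ratio was 17.0 with a counting interval of 2.72 to 704, and edgeR's adjusted p was 0.0888. With any 1 of the 6 libraries of 8w or 3d left out, the 8w against 3d call was lost in edgeR's test, at adjusted p between 0.0761 and 0.152, with the log2 change between 5.55 and 5.68. DESeq2 gave adjusted p = 0.0548.

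**Figure D4:**
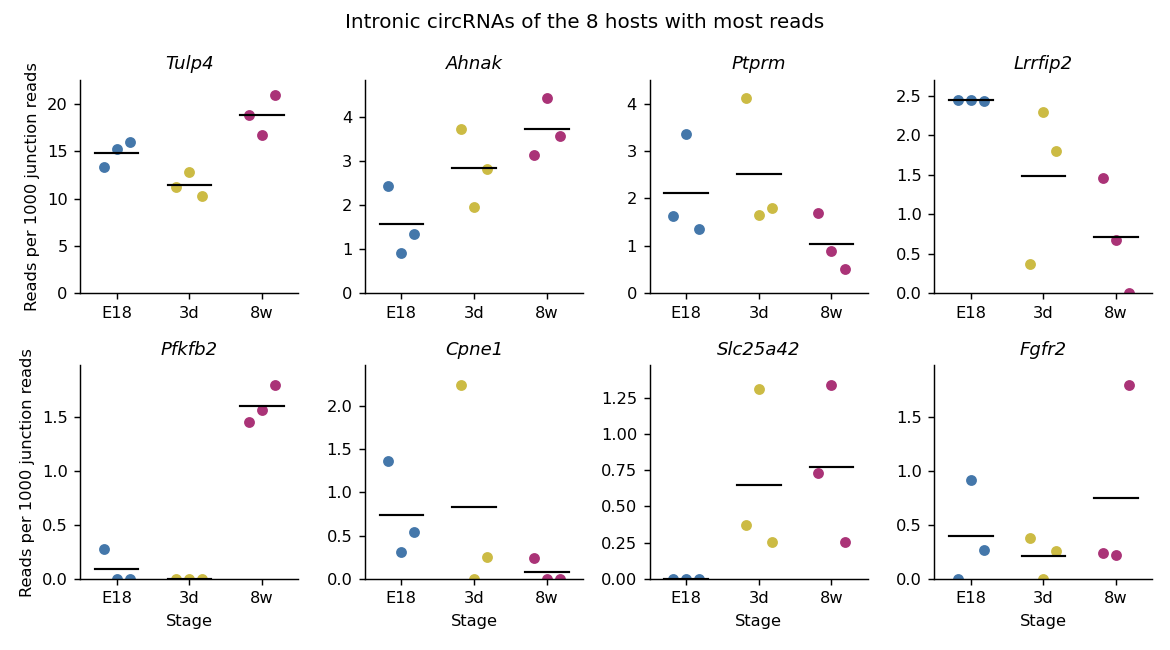
Intronic junction reads per 1000 junction reads of the library (vertical axes, each from 0) by stage (horizontal axis) for the 8 hosts with most reads. Points are libraries and bars are stage means; Tulp4 lies between 10.2 and 21.0, Pfkfb2 is at 0 in all 3d libraries, and the other hosts overlap between at least 2 stages.

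Ahnak and Ptprm followed in reads. Ahnak encodes a giant scaffold protein that binds the cardiac calcium channel. Its reads were 9, 3 and 5 at E18, 10, 6 and 11 at 3d, and 13, 20 and 14 at 8w, so the adult libraries lay above all others in reads. Per 1000 junction reads 8w replicate 1, at 3.15, lay below 3d replicate 1, at 3.74. The ratio of 8w to E18 was 2.35 (counting interval 1.32 to 4.36), with a log2 change of 1.22 and adjusted p = 0.164 in edgeR's test. All 11 Ahnak circles lay inside 1 exon of 17498 bases, within its coding sequence, 10 of them with AG and GT flanks. A circle of 201 bases held 55 of the 91 reads. The exact run shared by both ends ranged from 1 base, as in the 201-base circle, to 14 bases in a 378-base circle. The printed 201-base circle also has similar stretches just inside its start and just after its end, which exact runs do not show. Joints in repeated sequence can be misplaced, so the counts of Ahnak circles are uncertain too. Ptprm, a receptor phosphatase of cell contacts, had 6, 11 and 5 reads at E18, 11, 5 and 7 at 3d, and 7, 4 and 2 at 8w, with overlapping stages. Of its 58 reads 54 were on a 542-base circle with no exon inside intron 1, which spans 162585 bases. The Ptprm ratio of 8w to 3d was 0.434 (0.202 to 0.894), with edgeR adjusted p = 0.428.

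Lrrfip2 and Cpne1 gave circles with exon edges on both sides. Lrrfip2, whose protein takes part in innate and Wnt signalling, had 9, 8 and 9 reads at E18, 1, 7 and 7 at 3d, and 6, 3 and 0 at 8w. All E18 libraries were above all others. Its 2 circles, of 4496 and 10017 bases, end at the same base and so share the lower case part of the printed joints. The ratio of 8w to E18 was 0.294 (0.121 to 0.648), with a log2 change of -1.70 and edgeR adjusted p = 0.151. Cpne1, of a family of calcium-dependent membrane binders, had 5, 1 and 2 reads at E18, 6, 0 and 1 at 3d, and 1, 0 and 0 at 8w. Its exons overlap those of Rbm12 and Gm28036, so the host is uncertain.

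The remaining hosts by reads were lower, and those with 10 reads gave no call in edgeR's test, while Cdc14b, with 9 reads, was not tested. Slc25a42, the mitochondrial carrier of coenzyme A, had no reads at E18, 1, 4 and 1 at 3d, and 3, 6 and 1 at 8w. With 3 reads put in place of 0 for the E18 group, the share of Slc25a42 was 2.83-fold higher at 8w. On the reads as counted, the lower 95% counting limit of the ratio of 8w to E18 was below 2.83. In edgeR's quasi-likelihood test of 8w against E18 the adjusted p was 0.151. Fgfr2, a fibroblast growth factor receptor, had 0, 3 and 1 reads at E18, 1, 0 and 1 at 3d, and 1, 1 and 7 at 8w, so its adult level came from 8w replicate 3. Zeb1, a repressor of epithelial genes, had 6, 4 and 4 reads at E18, 3d and 8w, and Ccny, a membrane-bound cyclin, had 7, 2 and 3. Zfp644, a zinc finger gene, had 5, 2 and 4, and AK020518, which the table names by its transcript, had 4, 2 and 4. Cacna1c, the pore of the cardiac calcium channel, had 2 reads in E18 replicate 1 and 5 and 3 in 8w replicates 2 and 3. Samd4, an RNA-binding repressor, had 4 in E18 replicate 1 and 6 in 3d replicate 3, and Cdc14b, a phosphatase, had 6 of its 9 reads in 3d replicate 3. For these last 3 the reads sat in few libraries. The reads of Cacna1c and Samd4 were spread over 4 circles each.

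Host transcripts were compared by FPKM with limma on log2(FPKM + 1). Of 280 named hosts 272 had an FPKM and 268 reached a mean of 1. The median host was at 21.7 FPKM (quartiles 10.4 and 54.3), against 9.93 for all 11930 coding genes at 1 or more, 74.4% of which were below the median host. Hosts of exonic circles had a median of 17.6, and 124 hosts (44.3%) also had an exonic circle. In limma's test with Benjamini-Hochberg adjustment over all coding genes, 33 hosts rose and 41 fell from E18 to 3d (26.4% of all genes were called, 5% higher and 21.4% lower, and 27.6% of hosts). From 3d to 8w 59 rose and 128 fell (58.4% of genes, 21.4% higher and 37.1% lower, and 69.8% of hosts), and from E18 to 8w 56 rose and 131 fell (65.1% of genes, 17.8% higher and 47.3% lower, and 69.8% of hosts). The median log2 change of all genes was -0.15, -0.18 and -0.32 in these comparisons, and that of hosts -0.06, -0.28 and -0.33. With each library centred on its median, the splits became 50 up and 7 down, 73 and 99, and 88 and 84, so the balance of direction among hosts depended on the scaling. After the same centring 9.61% of all genes were called higher and 8.36% lower from E18 to 3d, 28.3% and 26.7% from 3d to 8w, and 30.7% and 26.7% from E18 to 8w.

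The FPKM of the listed host was set beside the reads of its circles, and the difference between both changes was not tested. Pfkfb2 stood at 7.92, 9.21 and 8.18 FPKM at E18, 12.5, 12.8 and 12.2 at 3d, and 38.2, 51.2 and 52.6 at 8w, and its 8w against 3d log2 change was 1.82 (SE 0.13, limma adjusted p = 8.23e-07). Tulp4 FPKM was 46.4, 49.7 and 47.3 at E18, 45.9, 53.0 and 56.1 at 3d, and 52.3, 60.5 and 50.1 at 8w. For Tulp4 the 8w against 3d log2 change of FPKM was 0.07 (SE 0.10, limma adjusted p = 0.58), beside 0.89 for its circle. Centred on the median it was 0.25 (limma adjusted p = 0.0866). Ptprm FPKM rose from 16.5 ± 1.54 to 31.5 ± 1.36 between E18 and 8w (SD, n = 3; log2 change 0.90, limma adjusted p = 1.94e-05), while its circle reads were lowest at 8w. Fgfr2 FPKM fell from 5.33 ± 1.04 at 3d to 0.56 ± 0.51 at 8w (log2 change -2.06, limma adjusted p = 1.92e-05), and 9 of its 15 circle reads were at 8w. Since that circle touches an exon of Eef1akmt2 and none of Fgfr2, its host is uncertain, as is that of the Pfkfb2 circles.

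Among the other leading hosts some rose, some fell and some were not called by FPKM. Ahnak FPKM rose from 149 ± 20.1 at 3d to 185 ± 16.5 at 8w (SD, n = 3; log2 change 0.32, limma adjusted p = 0.0344). That call was lost without 3d replicate 1 (limma adjusted p = 0.0889), 8w replicate 2 (0.119) or 8w replicate 3 (0.0761), and by quantile normalization (0.298). Slc25a42 FPKM rose from E18 to 8w by 1.03 on the log2 scale (limma adjusted p = 0.00146), from 8.41 ± 0.23 to 18.3 ± 2.81 (SD, n = 3). Zeb1 FPKM fell from 3d to 8w (log2 change -0.82, limma adjusted p = 1.17e-05), as did that of Zfp644 (-0.77, 1.56e-05) and of Cacna1c (-0.64, 0.00142). Lrrfip2 FPKM fell from 3d to 8w by 0.65 on the log2 scale (limma adjusted p = 0.000988), and its change from E18 to 8w was -0.34 as deposited (limma adjusted p = 0.0326) and 0.02 after centring. Leaving out any 1 library of those stages also ended that call, at limma adjusted p between 0.0586 and 0.0862. Ccny, Samd4, Cdc14b and Cpne1 were not called by FPKM in any comparison as deposited.

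**Figure D5:**
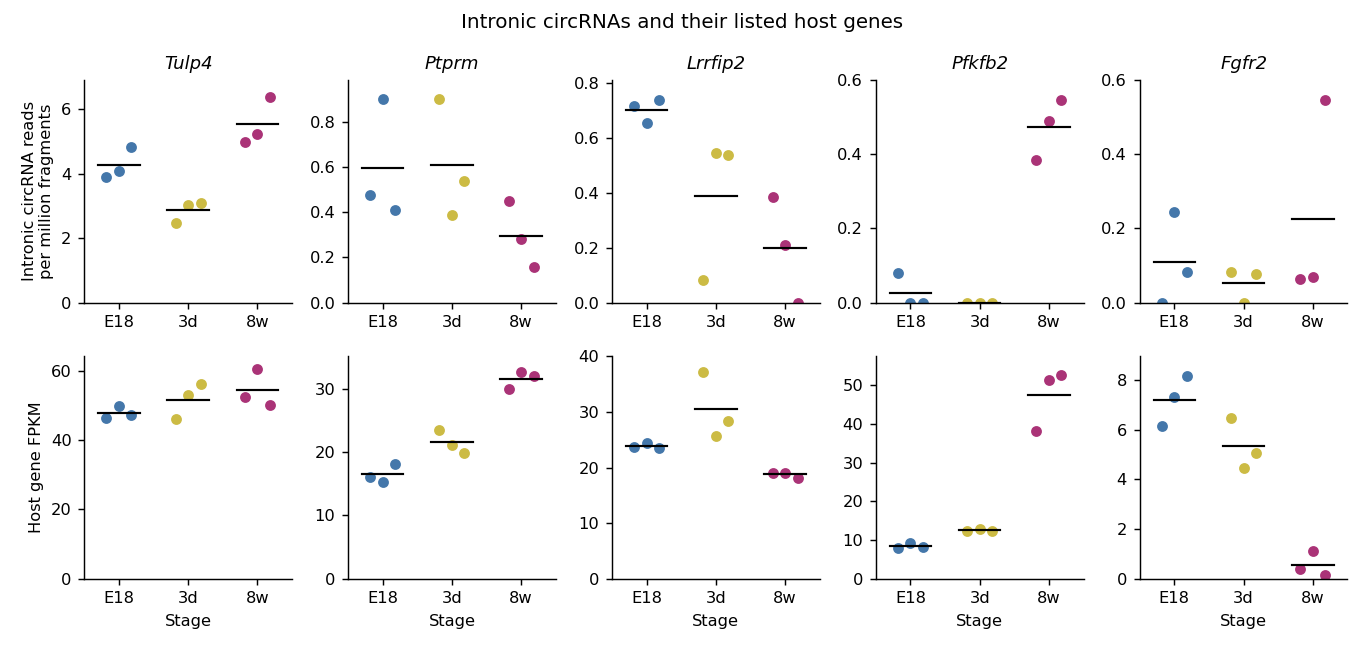
Intronic circRNA reads scaled to a fixed number of fragments (top row) and FPKM of the listed host (bottom row), vertical axes from 0, by stage (horizontal axis) for 5 hosts. Points are libraries and bars are stage means; Pfkfb2 is highest at 8w in both rows, while Tulp4 FPKM stays between 45.9 and 60.5 and Fgfr2 FPKM falls to 0.56 at 8w.

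Most tested genes that make and clear introns and circles were called lower at 8w than at E18 in FPKM, as were 47.3% of all coding genes. Of 50 tested genes in 4 lists, limma's test called 1 higher and 15 lower from E18 to 3d, 1 and 33 from 3d to 8w, and 1 and 42 from E18 to 8w. Among all coding genes 5% were called higher and 21.4% lower in the first comparison, 21.4% and 37.1% in the second, and 17.8% and 47.3% in the third. Centred on the library median, the 3 splits were 3 and 6, 2 and 26, and 1 and 28, where 9.61% and 8.36%, 28.3% and 26.7%, and 30.7% and 26.7% of all genes were called. The lists were chosen with earlier results of these data known, so the counts are a description.

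In lariat debranching and intron turnover, 0 of 11 rose and 8 fell from E18 to 8w, with a median log2 change of -0.51 beside -0.32 for all genes. After centring 3 of the 11 fell (26.7% of all genes). Dbr1, the debranching enzyme itself, was at 3.64, 4.45 and 3.25 FPKM at E18, 2.63, 3.03 and 3.25 at 3d, and 2.53, 3.23 and 2.10 at 8w. Its log2 change from E18 to 8w was -0.40 (SE 0.15, limma adjusted p = 0.0384), and after centring -0.05 (limma adjusted p = 0.808), so the call depended on the scaling. It was also lost without E18 replicate 1 (limma adjusted p = 0.0740), E18 replicate 2 (0.143), 8w replicate 1 (0.0827) or 8w replicate 3 (0.137). Dis3, a catalytic exosome subunit, fell by 1.02 (limma adjusted p = 2.46e-05), Mplkip by 0.78 (0.000431), Dhx15, a helicase that takes spliceosomes off lariats, by 0.77 (1.33e-05), and Xrn2, a nuclear exonuclease, by 0.68 (0.000673) on the log2 scale from E18 to 8w. The Xrn2 call was lost after centring (limma adjusted p = 0.0574).

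Among branch point and acceptor recognition genes, 0 of 14 tested rose and 13 fell from E18 to 8w (47.3% of all genes fell), with a median log2 change of -0.79 beside -0.32 for all genes, and 10 fell after centring (26.7% of all genes). From E18 to 8w Sf3b4 changed by -1.14, Sf3a3 by -1.09 and Phf5a by -1.03, which are parts of the particle that binds the branch point. U2af2, which binds the adjoining pyrimidine tract, changed by -1.01 (limma adjusted p between 6.65e-05 and 0.000306 for these 4). Among regulators of back-splicing, 1 of 16 rose and 13 fell over the same interval, with a median log2 change of -0.75, and 9 fell after centring, to be read beside the same shares of all genes. Nono changed by -1.54, Dhx9, a helicase that opens the paired repeats which favour circles, by -1.38, Srsf1 by -1.26 and Sfpq by -1.23 (limma adjusted p at most 1.30e-06). Mbnl1, which in flies promotes the circle of its own gene, was the 1 that rose, by 0.93 (limma adjusted p = 2.59e-06), and is named after its value was seen. Among decay and export genes, 0 of 9 tested rose and 8 fell from E18 to 8w, with a median log2 change of -0.69 beside -0.32 for all genes, and 6 fell after centring (26.7% of all genes). Ago2 changed by -1.83, and Ddx39b, an RNA export helicase, by -1.09 (limma adjusted p = 1.44e-07 and 0.000239). Eif2ak2, the kinase that circles can hold inactive, changed by -0.73 from 3d to 8w (limma adjusted p = 0.00343). From E18 to 8w its log2 change was -0.52 (SE 0.17, limma adjusted p = 0.0181) as deposited and -0.17 after centring, where the call was lost (limma adjusted p = 0.383). It was also lost without E18 replicate 1 (limma adjusted p = 0.0574) or 8w replicate 3 (0.0720), and by quantile normalization (0.330). Erythroid markers, 6 of 6 with a mean of at least 1 FPKM, whose sum lay between 3271 and 3560 FPKM at E18 and between 701 and 1584 at 8w, moved with these lists, and their part in the result was not tested. The summed macrophage markers (4 of 5 in the table) lay between 13.2 and 15.4 FPKM at E18 and between 42.7 and 51.3 at 8w, and none of the 4 adipocyte or 4 lymphocyte markers reached a mean of 1.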

How the data were processed

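Hearts of 3 stages were sequenced, with 3 libraries each. The circRNA table was deposited by the authors as whole-number counts, per the file headers, of reads across each back-splice junction in each library, with class, host and strand. Its caller and strand setting were not given in the sources used here. FPKM and estimated counts per gene were computed by the authors, per the file headers. Per the submitters' processing notes the tools were cutadapt 1.9.1, HISAT2 2.0.4 and Cuffdiff, and the builds GRCm38 and mm10. Another 9 columns of per-sample values beside the counts were not used.

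The deposited estimated counts were whole fragments times 1 factor per library: after division 94.3% to 95.1% of low values lay within 0.01 of a whole number, and the recovered fragments served as depth. FPKM were summed per symbol. Circles and host sums with at least 10 reads were tested with edgeR 4.0.16 (quasi-likelihood, TMM), FPKM with limma 3.58.1 (trend) on log2(FPKM + 1) at a mean FPKM of at least 1, in R 4.3.3, with all 9 libraries in 1 fit and Benjamini-Hochberg adjustment over all features tested; a call is an adjusted p under 0.05. DESeq2 1.42.0 was an alternative. Shares were compared by exact permutation. Ratios are relative to all junction reads of a stage. Scripts were tested on simulated data. Ends and introns were placed on GENCODE vM21 (GRCm38), exact to the base.

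The members and lists were chosen with earlier results of these data known. The rule named the 15 hosts and 12 circles with most reads, every called host or circle, and of each list the 4 genes with the largest change, plus Dbr1; 1 gene so chosen is not reported here. Samples of the same replicate number did not deviate together: correlations lay between -0.128 and 0.0992 for FPKM and between -0.0276 and 0.113 for circles.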

Additional observations from a re-analysis of the deposited data

How the results depend on the processing

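The share of junction reads on intronic circles changed sign where members were restricted. With only members inside 1 intron the difference was 0.0803 points for 3d against E18 and -0.0101 for 8w against 3d. With circles seen in at least 2 libraries it was -0.0657 from 3d to 8w and -0.298 from E18 to 8w, and without Tulp4 it was -0.125 for 8w against E18. Leaving out 1 library gave -0.77 to -0.21, 0.20 to 1.43 and -0.30 to 0.93 points in the 3 comparisons, the last negative without 8w replicate 2 (-0.302) and without E18 replicate 2 (-0.00158). The single called circle for 8w against 3d became 0 without TMM, with DESeq2, with at least 5 reads, with no filter and with 2 stages only, and was 0 to 1 when 1 library was left out. For 8w against E18 the count was 0 to 1 over those omissions: without 8w replicate 1 the shorter Lrrfip2 circle was called lower. The 2 called hosts for 8w against 3d became 1 without TMM (Pfkfb2), with DESeq2 (Tulp4) and with 2 stages only (Pfkfb2), 0 with at least 5 reads and with no filter, and 0 to 1 when 1 library was left out. With 2 stages only, Pfkfb2 was also called for 8w against E18, 1 host in place of 0. Hosts called by FPKM for 3d against E18 numbered 38 to 76 on leaving out 1 library. Processing genes called in that comparison fell from 16 to 9 by median centring, to 10 by quantile normalization and to between 9 and 16 on leaving out 1 library. Lrrfip2 FPKM for 8w against E18 was 0.0201 by median centring, against -0.34 as deposited. Circles at exon edges on both sides were 7.14% among those with at least 3 reads. Fragments as library size, an alternative chosen after seeing the data, kept the Tulp4 and Pfkfb2 host calls. The cause of these changes was not tested.

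Replicate numbers did not pair the libraries: 8 of 18 comparisons by FPKM and 7 of 18 by circles were best with the same number. As a replicate block they left 0 circles and 0 hosts called for 8w against 3d. The paired sign-flip test of the share gave exact p = 0.25, 0.5 and 1, where 0.25 is the smallest possible. Of 370 circles, 13 had the 10 reads set for the test, and with 36 tested at 5 reads or all 370 with no filter edgeR called 0 in each comparison (unadjusted p under 0.05 in 2, 5 and 5 of the 36 and in 2, 4 and 5 of the 370). Exact 4-read values and those without 8w replicate 2 were also added after seeing the data.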
